A study of Bos taurus with 38 samples.

Results

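CYP11A1 (ENSBTAG00000006934) and FDXR (ENSBTAG00000006525) are 2 of the 24616 Ensembl genes counted in 38 liver RNA-Seq libraries of 19 dairy cows. They were taken by identifier, with no measured value in the rule, and both were counted in all 38 libraries. The study had already named both as differing by RFI in these cows, FDXR in the Jerseys and CYP11A1 in the Holsteins. The cows were 9 Holsteins and 10 Jerseys. Each was biopsied once on a control (C) diet, low in concentrate, and once on a high concentrate (HC) diet, so that every cow gave 2 libraries. Residual feed intake (RFI) is the feed a cow eats beyond what her production and body weight predict, and a high RFI stands for low feed efficiency. The 4 groups were 4 high-RFI Holsteins, 5 low-RFI Holsteins, 5 high-RFI Jerseys and 5 low-RFI Jerseys. All were lactating cows of parity 1, 2 or 3 from 1 research herd, and no untreated group outside the diets was sampled. The order of the diets was crossed: 4 Holsteins and 5 Jerseys received C in the first period, and 5 Holsteins and 5 Jerseys received HC first.

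CYP11A1 is the cytochrome P450 of the inner mitochondrial membrane that cuts the side chain of cholesterol and so makes pregnenolone, the first step from cholesterol to all steroid hormones. The enzyme cannot take electrons from NADPH itself. FDXR, ferredoxin reductase, accepts them from NADPH and hands them to a ferredoxin, which carries them to CYP11A1 and to the other mitochondrial P450 enzymes, among them those of bile acid and vitamin D metabolism, and to the assembly of iron-sulphur clusters. Side-chain cleavage is best known from the adrenal cortex, the gonads and the placenta, whereas the liver is known mainly for inactivating steroids and for turning cholesterol into bile acids.

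Levels are given in CPM, the read pairs of a gene per 1000000 read pairs on all Ensembl genes of its library. The libraries held 17472750 to 24478289 such read pairs. CYP11A1 was read by 94 to 1711 read pairs per library and FDXR by 71 to 235. Exact Poisson intervals (95%) of single libraries cover counting error only. For CYP11A1 they ran from 4.06 to 6.14 CPM around the lowest library (5.02 CPM) and from 86.0 to 94.7 CPM around the highest (90.3 CPM). For FDXR they ran from 2.93 to 4.73 CPM around the lowest library (3.75 CPM) and from 8.41 to 10.9 CPM around the highest (9.60 CPM). In the RefSeq annotation of a later cattle assembly, ARS-UCD2.0, which was used for gene order only, 0 listed genes overlap either gene, on any strand. CYP11A1 lies there between SEMA7A and CCDC33, and FDXR between FADS6 and GRIN2C.

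Before the comparisons, the 2 libraries of each cow were set beside all others of the breed. After the mean of each RFI group and diet had been subtracted, 18 of 18 Holstein and 12 of 20 Jersey libraries most resembled the other library of their own cow. The 8 exceptions came from cows 5, 8, 10, 14 and 17, which are the 5 low-RFI Jerseys, and in 8 of 8 the nearest library was that of a high-RFI Jersey. Subtracting group means makes libraries of 1 group less alike. As a second measure, chosen after these values had been seen, genes were taken whose levels fell into a high and a low set in a breed, parted by at least 1 on the log2(CPM + 1) scale with 2 or more libraries on either side (64 genes in the Holsteins, 67 in the Jerseys). Each of the 18 Holstein libraries shared more of these calls (high or low) with its own cow's other library than with any library of another cow, as did 13 of 20 Jersey libraries. The HC libraries of cows 10 and 17 shared 67 of 67 calls and their C libraries 55, whereas the libraries labelled cow 10 shared 41 and those labelled cow 17 shared 53. These libraries go against their cow labels, and the libraries of cow 14, which shared 52 of 67 calls, were no more like each other than like cow 5 on HC. The HC library of cow 4, a high-RFI Jersey, shared 57 calls with her C library and 57 with cow 5 on HC. The labels were used as given. Fits without Jersey cows 10 and 17 are given where they turned or clearly moved a value.

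The clearest difference of the 2 genes lay in the Jerseys, where FDXR was lower in every high-RFI cow than in every low-RFI cow. The high-RFI Jerseys had FDXR levels of 3.75 (C) and 5.87 (HC) CPM in cow 3, 5.19 and 4.92 in cow 4, 4.74 and 4.86 in cow 12, 4.17 and 3.93 in cow 13, and 4.13 and 3.93 in cow 18. The low-RFI Jerseys had FDXR levels of 9.07 (C) and 7.10 (HC) CPM in cow 5, 8.69 and 7.64 in cow 8, 7.76 and 7.28 in cow 10, 6.72 and 9.60 in cow 14, and 7.03 and 9.57 in cow 17. No library of either group reached the other: the highest high-RFI library stood at 5.87 CPM and the lowest low-RFI library at 6.72 CPM. The counting intervals of these neighbouring libraries overlapped, from 4.83 to 7.07 CPM for cow 3 on HC and from 5.63 to 7.95 CPM for cow 14 on C.

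Taken by cow, as the mean of both diets, FDXR averaged 4.55 ± 0.475 CPM in the high-RFI Jerseys (SD, n = 5) and 8.05 ± 0.303 CPM in the low-RFI Jerseys (SD, n = 5). The main edgeR fits took the 2 libraries of a cow as independent. In the edgeR quasi-likelihood fit with parity, diet and RFI, FDXR fell by 0.80 on the log2 scale (SE 0.09, Benjamini-Hochberg adjusted p = 0.000180), which is 0.573 of the low-RFI level. That was the smallest p of the 11905 Jersey genes tested, in a comparison in which 0.0336% of the genes (4 of 11905) passed the adjusted threshold of 0.05. The study had named FDXR from these same libraries, so this rank is a description and not an independent finding. Every high-RFI cow mean lay below every low-RFI cow mean for 0.361% of the tested genes, and the groups lay apart in either direction for 0.462%. Permuting the cows between the groups (exact, two-sided) gave a difference of -0.71 on the log2(CPM + 1) scale with p = 0.00794, the smallest that 5 against 5 cows allow, and 0.0714 after adjustment over the 18 exact tests of both genes. On TMM-scaled CPM (library totals adjusted by edgeR's trimmed mean of M-values) the exact p was the same and the adjusted value 0.141. The cow as a random block kept the edgeR call (-0.81, limma adjusted p = 0.000631). With the libraries of each cow summed the log2 difference was -0.81 as well and missed the threshold (adjusted p = 0.0585). Over all 10 alternatives the adjusted p ran from 7.16e-13 to 0.168. With RFI entered as a number, FDXR changed by -0.34 on the log2 scale per unit of RFI and did not pass (adjusted p = 0.168).

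**Figure D1:**
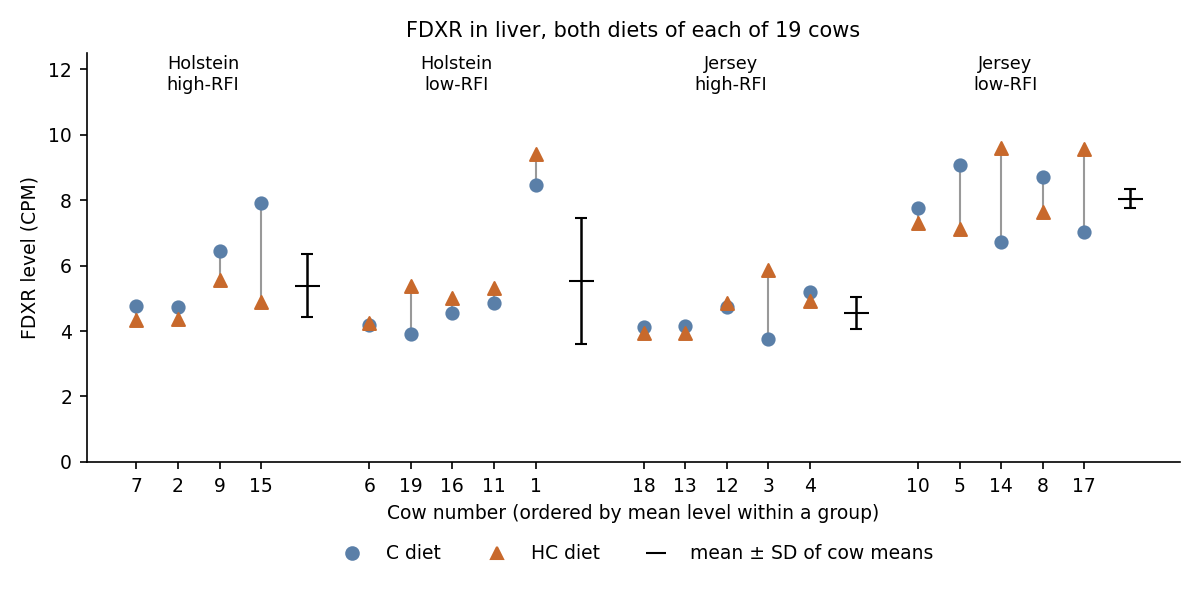
FDXR level in CPM (y axis, from 0) in both libraries of each cow, ordered by mean level within the 4 groups, with the mean and SD of the cow means beside each group. The 10 libraries of the high-RFI Jerseys lie at or below 5.87 CPM and the 10 of the low-RFI Jerseys at or above 6.72 CPM, while the Holstein groups overlap.

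The cows had been chosen in blocks of similar parity and lactation stage, with a high- and a low-RFI cow of each breed in a block. FDXR was lower in the high-RFI Jersey of 5 of 5 blocks, at 0.488 to 0.638 of the level of her partner. Leaving out each Jersey in turn kept the log2 difference between -0.83 and -0.77, with adjusted p values from 0.000332 to 0.00429. Without cows 10 and 17 it was -0.78 with an adjusted p of 0.0128. In bulk tissue, fewer cells of a type and less RNA per cell cannot be told apart.

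In the Holsteins FDXR did not separate by RFI. The high-RFI Holsteins had 4.74 (C) and 4.38 (HC) CPM in cow 2, 4.75 and 4.34 in cow 7, 6.45 and 5.56 in cow 9, and 7.90 and 4.88 in cow 15. The low-RFI Holsteins had 8.46 (C) and 9.40 (HC) CPM in cow 1, 4.19 and 4.25 in cow 6, 4.84 and 5.30 in cow 11, 4.55 and 5.02 in cow 16, and 3.92 and 5.38 in cow 19. Cow 1 stood above all other Holsteins on both diets, and the other 4 low-RFI cows lay within or below the range of the high-RFI cows. FDXR averaged 5.38 ± 0.962 CPM over the 4 high-RFI and 5.53 ± 1.93 CPM over the 5 low-RFI Holsteins (SD over cows). The fitted log2 difference was -0.00 (SE 0.20, edgeR adjusted p = 0.999), where 0.0665% of 12025 genes passed. It took either sign when single cows were left out, from -0.20 to 0.23.

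Whether the RFI difference itself differed between the breeds was tested in a joint fit of all 38 libraries, in which 0.0661% of 12103 genes passed. For FDXR the Jersey effect minus the Holstein effect was -0.79 on the log2 scale (SE 0.19, edgeR unadjusted p = 0.000199, adjusted p = 0.0958), so the difference missed the threshold. 3 settings took it past: DESeq2 (-0.81, adjusted p = 0.0236), and edgeR without Holstein cow 1 (-0.98, adjusted p = 0.00691) or without Holstein cow 2 (-0.94, adjusted p = 0.0489). The adjusted p ranged from 0.0236 to 0.689 over 7 alternatives and from 0.00691 to 0.212 over the 19 fits that each left out 1 cow.

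CYP11A1 varied far more from cow to cow than FDXR did. The high-RFI Holsteins had CYP11A1 levels of 85.5 (C) and 90.3 (HC) CPM in cow 2, 19.97 and 20.4 in cow 7, 37.6 and 69.0 in cow 9, and 17.8 and 64.8 in cow 15. The low-RFI Holsteins had 40.6 (C) and 41.6 (HC) CPM in cow 1, 13.9 and 14.4 in cow 6, 12.7 and 14.9 in cow 11, 7.98 and 16.3 in cow 16, and 10.7 and 25.9 in cow 19. Most high-RFI cows stood above most low-RFI cows, but cow 1 lay well above her group and cow 7 well below hers, so the groups overlapped.

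CYP11A1 averaged 50.7 ± 28.3 CPM over the 4 high-RFI cows and 19.9 ± 12.1 CPM over the 5 low-RFI cows of this breed (SD over cows). The fitted log2 difference was 1.46 (SE 0.29), 2.76 times the low-RFI level, with rank 12 by p among 12025 genes. It did not pass after adjustment (edgeR adjusted p = 0.103). Permuting the cows (exact, two-sided) gave 1.23 on the log2(CPM + 1) scale with p = 0.0635 (0.321 adjusted over the 18 tests). CYP11A1 was higher in the high-RFI cow of 3 of 4 Holstein blocks, at 3.39 to 6.21 times her partner, and lower in the fourth (0.492 times), which paired cow 7 with cow 1. The log2 difference kept its sign in all 9 fits that left out a cow (1.26 to 1.68) and passed only without cow 1 (adjusted p = 0.0446). It also passed with DESeq2 (adjusted p = 0.00524), with no filter on low counts (adjusted p = 0.0317) and with RFI entered as a number (1.29 per unit, adjusted p = 0.00731), whereas summed libraries gave an adjusted p of 0.987, the highest of 9 alternatives. All fits in which it passed took the 2 libraries of a cow as independent.

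**Figure D2:**
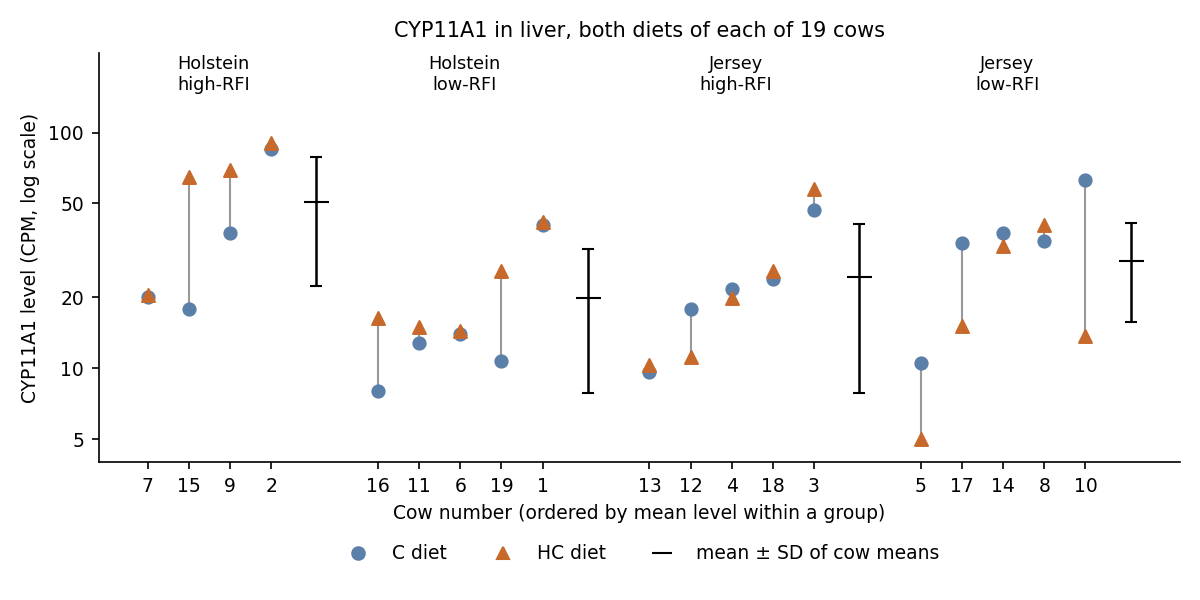
CYP11A1 level in CPM (y axis, log scale) in both libraries of each cow, ordered by mean level within the 4 groups, with the mean and SD of the cow means beside each group. Cow means ran from 7.77 to 87.9 CPM, all groups overlap, and all 9 Holsteins have the HC triangle above the C circle (7 of 9 on TMM-scaled CPM).

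In the Jerseys CYP11A1 showed no separation by RFI. The high-RFI Jerseys had 47.1 (C) and 57.7 (HC) CPM in cow 3, 21.7 and 19.8 in cow 4, 17.8 and 11.1 in cow 12, 9.64 and 10.3 in cow 13, and 23.8 and 25.9 in cow 18. The low-RFI Jerseys had 10.5 (C) and 5.02 (HC) CPM in cow 5, 34.7 and 40.3 in cow 8, 62.6 and 13.7 in cow 10, 37.3 and 32.8 in cow 14, and 33.9 and 15.2 in cow 17. Cow 5 had the lowest level of all 19 cows and her block partner, cow 3, the highest of the Jerseys. High-RFI cows averaged 24.5 ± 16.6 CPM and low-RFI cows 28.6 ± 12.9 CPM (SD, n = 5 each). The fitted log2 difference was -0.24 (SE 0.42, edgeR adjusted p = 0.993) and turned to 0.04 without cows 10 and 17. The Jersey effect of RFI minus the Holstein effect was -1.79 (SE 0.56, edgeR unadjusted p = 0.00286, adjusted p = 0.254), and no alternative brought it past the threshold.

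Diet was read within cows. In the Holsteins CYP11A1 was higher on HC than on C in 9 of 9 cows, by 1.02 to 3.65 times, and in 7 of 9 on TMM-scaled CPM, the scaling of the fits, where cow 1 (0.993 times) and cow 2 (0.974 times) turned. In 5 of these cows the HC level was less than 25% above the C level, and cow 15 (3.65 times), cow 19 (2.41 times), cow 16 (2.05 times) and cow 9 (1.84 times) carried most of the difference. By order of the diets, 4 of 4 cows that began on C and 5 of 5 that began on HC were higher on HC by CPM, and both cows that turned on TMM-scaled CPM had begun on C. The libraries averaged 27.4 ± 24.6 CPM on C and 39.7 ± 28.3 CPM on HC (SD, n = 9 each).

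The edgeR fit gave a log2 difference of 0.64 (SE 0.28, unadjusted p = 0.0362, adjusted p = 0.353) in a comparison in which 0.782% of 12025 genes passed. With the cow as a fixed block it was 0.62 (SE 0.18, adjusted p = 0.0915). Flipping the signs of the differences within cows gave 0.58 on the log2(CPM + 1) scale with an exact two-sided p of 0.00391, the smallest that 9 cows allow, and 0.0703 after adjustment over the 18 tests. On TMM-scaled CPM the same test gave 0.61 with an exact p of 0.0156 (0.141 adjusted). All 9 Holsteins were higher on HC for 0.840% of the tested genes, and all 9 moved in 1 direction, either way, for 2.99%.

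The Jerseys gave no such pattern for CYP11A1. The level was higher on HC in 4 of 10 cows, from 0.218 times the C level in cow 10 to 1.22 times in cow 3. It was lower on HC in 4 of the 5 low-RFI Jerseys and higher in 3 of the 5 high-RFI Jerseys. The fitted log2 difference was -0.36 (SE 0.41, edgeR adjusted p = 0.776), where 0.370% of 11905 genes passed. It rested on the cows whose libraries go against their labels, at -0.13 without cow 10 and -0.00922 without cows 10 and 17. The exact two-sided sign-flip test gave -0.44 on the log2(CPM + 1) scale (p = 0.102). The difference in diet response between the RFI groups of the Jerseys, 0.87 (SE 0.80), had an adjusted p of 0.999 in a comparison in which 0% of the genes passed (2 with DESeq2, and 443 at an unadjusted edgeR p under 0.05). It was 0.34 without cow 10 and 0.0896 without cows 10 and 17.

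FDXR moved in opposite directions between the diets in the 2 Holstein groups. It was lower on HC in 4 of 4 high-RFI Holsteins, at 0.618 times the C level in cow 15, 0.862 in cow 9, 0.914 in cow 7 and 0.923 in cow 2. It was higher on HC in 5 of 5 low-RFI Holsteins, from 1.02 times in cow 6 to 1.37 times in cow 19. Most of these differences were small: in 7 of the 9 cows the higher level was less than 25% above the lower, and the counting intervals of the 2 libraries stayed apart in 1 of the 9, cow 15 (6.69 to 9.27 CPM on C, 3.93 to 5.99 CPM on HC). Every high-RFI cow moved in 1 direction and every low-RFI cow in the other for 0.258% of the tested genes.

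The interaction of RFI and diet for FDXR in the Holsteins was -0.54 on the log2 scale (SE 0.34, edgeR adjusted p = 1.0), and 0% of 12025 genes passed (0 with DESeq2 also, and 206 at an unadjusted edgeR p under 0.05). With the cow as a block it was -0.53 (SE 0.18, unadjusted p = 0.0135, adjusted p = 0.998). An exact two-sided permutation of the RFI labels over the cows, added after these values had been seen, gave -0.40 on the log2(CPM + 1) scale with p = 0.00794, the smallest possible, and 0.0582 after adjustment over 22 exact tests. HC came first in 3 of the 4 high-RFI and 2 of the 5 low-RFI Holsteins, so the order of the diets was not balanced between these groups, and its part in the pattern was not tested in the exact test. Over all Holsteins the log2 difference of FDXR between the diets was -0.01 (SE 0.18, edgeR adjusted p = 0.989), with 5.53 ± 1.66 CPM on C and 5.39 ± 1.58 CPM on HC (SD, n = 9 each).

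**Figure D3:**
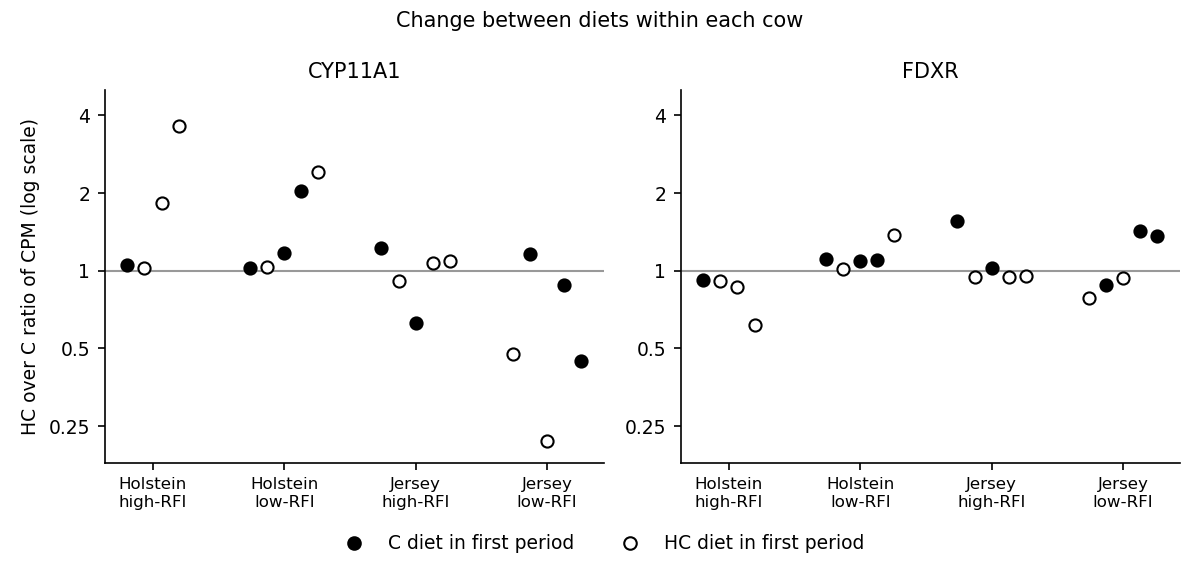
Ratio of the HC to the C level of each cow (y axis, log scale) for CYP11A1 and FDXR in the 4 groups, with filled points for cows that received C first and open points for cows that received HC first. CYP11A1 lies above 1 in 9 of 9 Holsteins, FDXR below 1 in 4 of 4 high-RFI and above 1 in 5 of 5 low-RFI Holsteins, and in the Jerseys FDXR lies below 1 in all 5 cows that received HC first. On TMM-scaled CPM, which is not plotted, 7 of 9 Holsteins were above 1 for CYP11A1. For FDXR, Jersey cows 13 and 18, which received HC first, were above 1 on that scaling.

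In the Jerseys 2 of 5 cows of each RFI group had more FDXR on HC. On TMM-scaled CPM these were 4 of 5 high-RFI and 2 of 5 low-RFI cows. By CPM the ratio split by the order of the diets. FDXR was lower on HC in 5 of 5 cows that received HC first, at 0.783 to 0.953 times the C level. Of these, cow 13 (1.05 times) and cow 18 (1.02 times) turned on TMM-scaled CPM. FDXR was higher on HC in 4 of 5 cows that received C first, with cow 8 (0.879 times) as the exception. Read by period, FDXR was therefore higher at the second biopsy in 9 of 10 Jerseys, and in 7 of 10 on TMM-scaled CPM (not in cows 8, 13 and 18), with 5.81 ± 1.75 CPM in the first and 6.79 ± 2.20 CPM in the second period (SD, n = 10 each). At least 9 of 10 Jerseys moved in 1 direction between the periods for 2.79% of the tested genes. These counts within cows take the labels as given. The libraries of cows 10 and 17 go against those labels, and cow 14 is in doubt. The fitted log2 difference between the periods was 0.18 (SE 0.08, edgeR unadjusted p = 0.0310, adjusted p = 0.615), and 0% of 11905 genes passed (14 with DESeq2, and 963 at an unadjusted edgeR p under 0.05). Without cows 10 and 17 the difference was 0.14 (edgeR adjusted p = 0.731). The exact two-sided test, which permutes the first diet over the cows, gave p = 0.0714 (0.321 adjusted). Between the diets the Jerseys had 6.13 ± 1.98 CPM on C and 6.47 ± 2.11 CPM on HC (SD, n = 10 each, log2 difference 0.14, SE 0.09, edgeR adjusted p = 0.555).

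No difference between the periods passed the test for either gene. In the Holsteins FDXR was higher at the second biopsy in 6 of 9 cows (log2 difference 0.11, SE 0.18, edgeR adjusted p = 1.0), with 0% of the genes called (0 with DESeq2 also, and 190 at an unadjusted edgeR p under 0.05). CYP11A1 was higher at the second biopsy in 4 of 9 Holsteins (-0.36, SE 0.27) and 5 of 10 Jerseys (0.25, SE 0.43). The value in the Jerseys turned to -0.03 without cows 10 and 17.

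By parity, CYP11A1 was highest in the oldest Holsteins, but within a wide spread. The cow means were 12.2, 18.3 and 41.3 CPM in the 3 Holsteins of parity 1, 13.8, 20.2 and 53.3 CPM in the 3 of parity 2, and 14.1, 41.1 and 87.9 CPM in the 3 of parity 3. Each parity held a cow near the bottom of the Holstein range. The fitted log2 difference of parity 3 against parity 1 was 1.02 (SE 0.35, edgeR unadjusted p = 0.00921, adjusted p = 0.259), where 0.383% of 12025 genes passed. This fit took the 2 libraries of a cow as independent. The exact two-sided test over cows gave p = 0.300, and 3 against 3 cows cannot go below 0.1. In the Jerseys the CYP11A1 difference was 0.41 (SE 0.46, edgeR adjusted p = 0.751), where 0.227% of 11905 genes passed, with 23.6 ± 10.3 CPM at parity 1 and 29.6 ± 19.5 CPM at parity 3 (SD, n = 4 each).

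FDXR did not pass the test by parity in either breed. It was 5.28 ± 0.968 CPM at parity 1 and 5.91 ± 2.63 CPM at parity 3 in the Holsteins (SD, n = 3 each, log2 difference 0.11, SE 0.21, edgeR adjusted p = 0.906), and without cow 1 the difference was -0.30. In the Jerseys it was 6.14 ± 2.42 CPM at parity 1 and 6.53 ± 1.85 CPM at parity 3 (SD, n = 4 each, log2 difference 0.12, SE 0.10, edgeR adjusted p = 0.620).

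Neither gene passed the test between the breeds, although 9.68% of 12103 genes did. CYP11A1 averaged 33.6 ± 25.2 CPM in the Holsteins (SD, n = 9) and 26.6 ± 14.2 CPM in the Jerseys (SD, n = 10), a log2 difference of -0.18 (SE 0.32, edgeR adjusted p = 0.783), and -0.47 without Jersey cows 10 and 17. FDXR averaged 5.46 ± 1.49 CPM in the Holsteins and 6.30 ± 1.88 CPM in the Jerseys, a log2 difference of 0.19 (SE 0.11, edgeR adjusted p = 0.308). The FDXR mean of the Jerseys lies between their RFI groups, where no cow of that breed was found: the cow means were 4.03 to 5.05 CPM in 5 cows and 7.52 to 8.30 CPM in the other 5. In order of their means, the 4 groups ran from the high-RFI Jerseys over the high-RFI and low-RFI Holsteins to the low-RFI Jerseys for FDXR, and the Holstein groups did not differ beyond their spread. For CYP11A1 the order was low-RFI Holsteins, high-RFI Jerseys, low-RFI Jerseys and high-RFI Holsteins, with every neighbouring pair within the spread between cows.

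**Figure D4:**
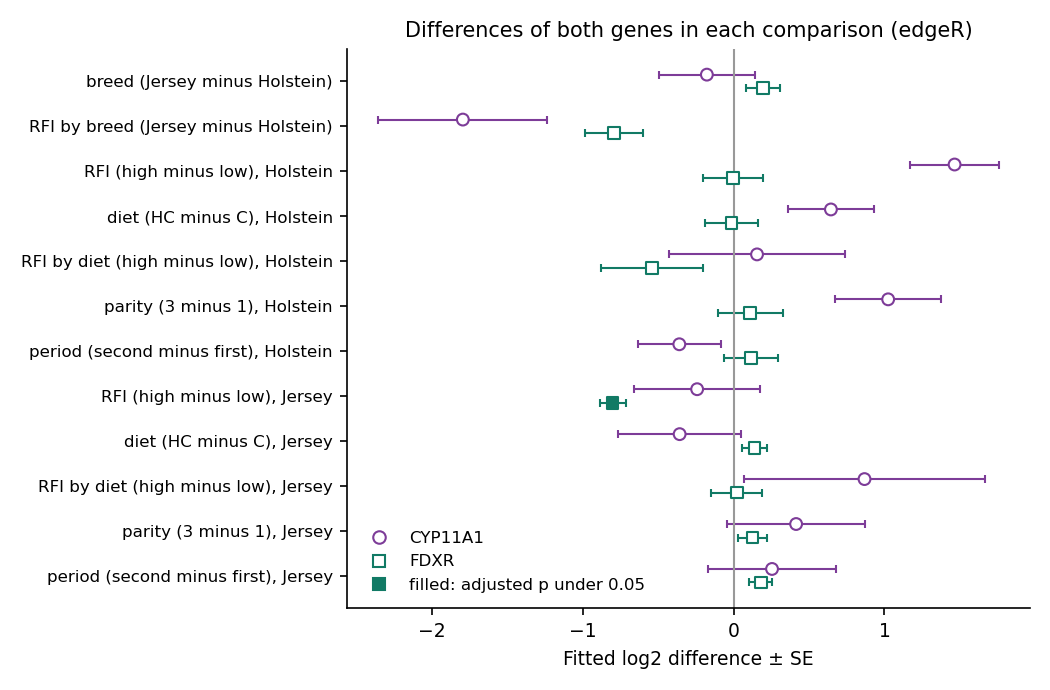
Fitted log2 difference of CYP11A1 (circles) and FDXR (squares) in each comparison with its SE (bars), from the edgeR fits, filled where the adjusted p was under 0.05. Only FDXR by RFI in the Jerseys (-0.80) is filled, and the largest value of CYP11A1 within a breed is 1.46 by RFI in the Holsteins.

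The spread between cows set CYP11A1 apart from most genes. On the log2(CPM + 1) scale its cow means had an SD of 0.97 in the Holsteins and 0.84 in the Jerseys, higher than those of 99.4% of the tested genes in either breed, where the median gene had 0.15. The SD within a cow, between her diets, was 0.60 in both breeds, higher than for 98.9% (Holsteins) and 98.2% (Jerseys) of the genes. For FDXR the SD between cows was 0.29 (Holsteins) and 0.38 (Jerseys), higher than for 89.5% and 95.3% of the genes, whereas its SD within a cow, 0.18 and 0.20, lay near the median gene (0.19 and 0.20). These SDs include counting error, which is larger for genes with few read pairs, so the percentages are descriptions.

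CYP11A1 and FDXR did not vary together in a way that passed a test. Over the 9 Holstein cow means on the log2(CPM + 1) scale, Pearson's r was 0.40 (exact permutation p = 0.295) and Spearman's rho was 0.25 (exact permutation p = 0.521). Without cows 2 and 9, the 2 cows farthest from the median of CYP11A1, r was 0.85, and without cow 2 alone it was 0.77. Cow 2, with the highest CYP11A1 and a low FDXR level (4.56 CPM), thus lowered the coefficient. Within the RFI groups r was -0.03 over the 4 high-RFI and 0.93 over the 5 low-RFI Holsteins, with rho 0.2 in both. Cow 1 was high in both genes among the low-RFI Holsteins. In the Holstein blocks both genes took the same direction: each was higher in the high-RFI cow of the same 3 blocks and lower in the block of cows 7 and 1. In the 3 blocks FDXR stood at only 1.08 to 1.34 times the partner, against 3.39 to 6.21 times for CYP11A1. In the block of cows 7 and 1 the ratios were 0.509 and 0.492. In the Jersey blocks FDXR was lower in the high-RFI cow of 5 of 5, and CYP11A1 in 4 of 5.

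The differences between the diets gave r = -0.38 and rho = -0.13 over the 9 Holsteins (exact permutation p = 0.326 and 0.744), and r = 0.17 and rho = 0.20 over the 10 Jerseys (permutation p = 0.653 and 0.581). Without the 2 cows farthest from the median, r was -0.09 in the Holsteins (cows 15 and 19) and 0.40 in the Jerseys (cows 10 and 17). The Holstein value turned to 0.43 without cow 15, which had the highest CYP11A1 ratio (3.65) and the lowest FDXR ratio (0.618) of the breed. After adjustment over the 4 relations computed, each p for Pearson's r was 0.651 or more. For the Jersey cow means no pooled coefficient is given, because FDXR placed the cows in 2 clusters of 5.

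**Figure D5:**
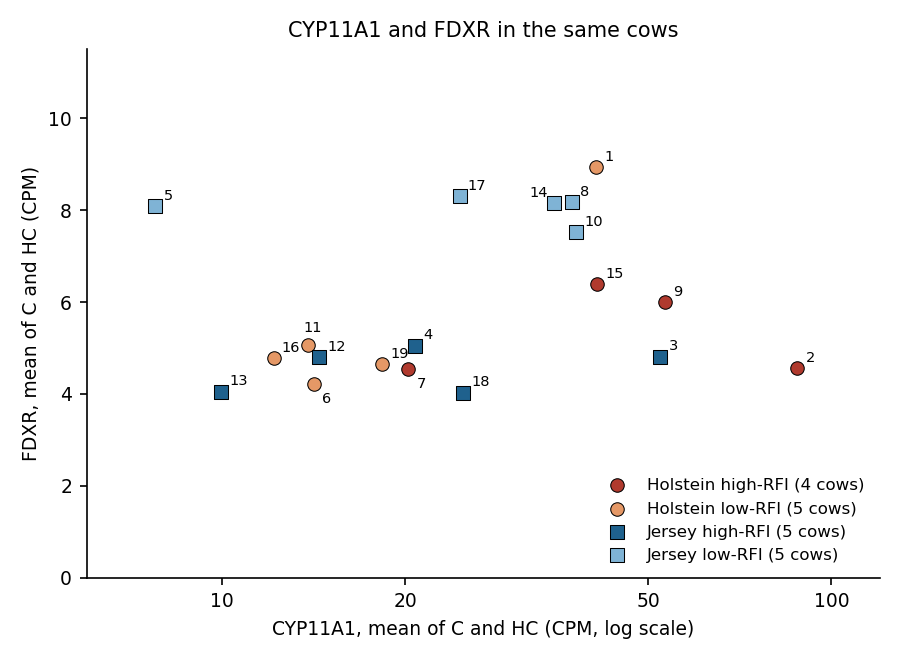
Mean CYP11A1 level (x axis, CPM, log scale) against mean FDXR level (y axis, CPM) of each of 19 cows, by breed and RFI group, with cow numbers. The low-RFI Jerseys form a band between 7.52 and 8.30 CPM of FDXR over CYP11A1 levels from 7.77 to 38.2 CPM, and cow 1 is the only Holstein above 6.39 CPM of FDXR.

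Over the 19 cow means, centred within breed, FDXR ranked 2488 among 11826 other genes by its Pearson's r with CYP11A1 (0.24). These coefficients are descriptions over 19 cows that share breeds and RFI groups. The genes most like CYP11A1 had no symbol in the tables used here and were led by ENSBTAG00000020646 (r = 0.82) and ENSBTAG00000009471 (r = 0.72). Those most like FDXR were led by ENSBTAG00000017361 (r = 0.79) and ENSBTAG00000018463 (r = 0.78). The first gene with a symbol was LYZ for CYP11A1 (rank 12, r = 0.68), a lysozyme with near copies in the cattle genome, so its counts are uncertain. For FDXR it was ARMC10 (rank 32, r = 0.67), and the gene with the most opposite pattern was MCTP2 (r = -0.79). Symbols came only through the gene lists of the study, which names ARMC10, MCTP2 and FDXR as differing by RFI in these Jerseys. The cow means were not centred within RFI groups, so these 2 coefficients are not independent of that difference.

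The wider pathway could be followed in part only. Of 80 listed genes of cholesterol delivery, mitochondrial P450 enzymes, steroid and bile acid metabolism, cholesterol synthesis and iron-sulphur cluster assembly, 4 were paired with an identifier, too few for counts by list. Beside CYP11A1 and FDXR these were CYP7A1, the rate-limiting enzyme of the classical bile acid pathway, and NR1H4, the bile acid receptor of the nucleus. The study had already named CYP7A1 and NR1H4 as higher in the high-RFI Holsteins of these data. Their direction by RFI there is a description and not an independent finding. CYP7A1 averaged 327 ± 206 CPM over the 4 high-RFI and 124 ± 80.5 CPM over the 5 low-RFI Holsteins (SD over cows), a log2 difference of 1.09 (SE 0.28, edgeR adjusted p = 0.253), so it lay in the direction of CYP11A1 there without passing. Between the diets of the Holsteins CYP7A1 had a log2 difference of -0.86 (SE 0.29, adjusted p = 0.187), against 0.64 for CYP11A1. NR1H4 differed by 0.26 (SE 0.06, edgeR adjusted p = 0.166) by RFI in the Holsteins. In the Jerseys the RFI differences were -0.03 for CYP7A1 and 0.05 for NR1H4.

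Of the 144 genes listed for the pathway and for cell types, 5 were paired in all. The only cell type marker among them was CD3D of T cells, 1 of 12 listed for leukocytes. Of the hepatocyte markers 0 of 10 were paired, and of the steroidogenic cell markers 0 of 9. The labelled tissue was therefore not checked against its markers here. CD3D averaged 4.97 ± 0.471 CPM over the high-RFI and 3.22 ± 0.698 CPM over the low-RFI Holsteins, and 3.27 ± 0.192 CPM against 4.42 ± 1.53 CPM over the Jersey groups (SD over cows). The study places CD3D in the core of pathways lower in the high-RFI cows of both breeds. The Holstein means here run the other way. The Jersey effect of RFI on CD3D minus the Holstein effect was -1.02 (SE 0.21, edgeR adjusted p = 0.0447), the same sign as for FDXR and CYP11A1. That fit took the 2 libraries of a cow as independent. With the cow as a random block, or with summed libraries, 0 genes passed in this comparison. The part of T cells in the values of either gene was not tested. In the high-RFI Jerseys 76.5% of all read pairs fell on genes, against 76.1% among low-RFI ones.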

How the data were processed

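RNA was read from 38 liver biopsies of 19 cows. The authors removed adapters, aligned the read pairs to UMD3.1 with STAR 2.3.0 and made the deposited counts with HTSeq, raw read pairs per Ensembl gene. The kit was stranded, but the strand setting of the counting is not given in the sources used here, so antisense reads could be included. The members and lists were chosen with earlier results of these data known, and both genes had been named by the study in these cows. Symbols were paired with identifiers through the gene lists of the study (77 pairs). Group and cow number came from the labels, which call low-RFI cows high in feed efficiency. Period, selection block and the RFI value came from the study's table of cows, whose groups are also named by efficiency. By that value cow 1 (low-RFI) lay above cow 15 (high-RFI), while the Jersey groups did not overlap.

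CPM used the total of the 24616 Ensembl genes, without the 5 summary rows of HTSeq (20.1% to 25.1% of the read pairs). Genes that reached 1 CPM in 8 or more Holstein libraries, or in 10 or more of the Jerseys, were all fitted with edgeR 4.0.16 in R 4.3.3 (TMM, prior count 2, quasi-likelihood F test, two-sided, Benjamini-Hochberg over all genes), with parity, diet and RFI, each breed alone. Breed and RFI by breed were fitted jointly. Alternatives were DESeq2 1.42.0 and its size factors, no filter, no parity term, the cow as a replicate block (limma 3.58.1 or edgeR), summed libraries, the period, the RFI value, the selection block, and cows left out. The fits took the 2 libraries of a cow as independent unless the cow was a block or her libraries were summed. Exact permutation tests used cow means of log2(CPM + 1), adjusted over 18 tests. The fits were tested on simulated data. The named genes are both members, the listed genes with an identifier, and the 5 genes most like each member, of which 2 are printed without a symbol. LYZ, ARMC10 and MCTP2 were named after their values were seen.

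Cow numbers pair the libraries, since a number marks an animal. Deviations from the group means correlated within all 9 Holsteins (r from 0.21 to 0.60), and over 0.1 in 7 of 10 Jerseys (-0.16 to 0.60). All samples were sequenced in 1 run. No sequence, coordinate or annotation of UMD3.1 was used here.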

Additional observations from a re-analysis of the deposited data

Results flagged for a closer look

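Within the 4 groups of cows, 32 sets of 4 or 5 values were examined for a value far from the rest, and chance marks about 1 set in 20. The sets hold the C level, the HC level, their mean and their ratio for the same cows, so they are not independent. In 8 sets a cow stood apart, and 5 of these were cow 1 among the 5 low-RFI Holsteins. Her CYP11A1 level was 40.6 CPM on C and 41.1 CPM as the mean of both diets. Her FDXR level was 8.46 CPM on C, 9.40 CPM on HC and 8.93 CPM as the mean. Both genes were thus high in the same cow on both diets, and CYP11A1 of her HC library (41.6 CPM) did not stand apart by the same measure.

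Among the low-RFI Holsteins cow 19 had the highest HC over C ratio of FDXR, 1.37. Among the high-RFI Jerseys cow 3 had the highest such ratio, 1.56. Among the low-RFI Jerseys cow 10 had the lowest mean FDXR level, 7.52 CPM.

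The HC minus C difference of FDXR had opposite signs in all high-RFI and all low-RFI Holsteins. The interaction in the edgeR fit was -0.54 (SE 0.34, adjusted p = 1.0).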

How the results depend on the processing

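FDXR by RFI in the Jerseys kept its sign in all 10 alternatives and all 10 fits without 1 cow. It did not pass with the libraries of each cow summed (-0.81) or with RFI as a number (-0.34 per unit). CYP11A1 by RFI in the Holsteins kept its sign in all alternatives and passed with no filter (1.47), with DESeq2 (1.46) and with RFI as a number (1.29 per unit), and the range without 1 cow was 1.26 to 1.68. The RFI by breed value of FDXR passed with DESeq2 (-0.81) and ranged from -0.98 to -0.66 without 1 cow.

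Values that were not called turned sign as follows. With RFI as a number FDXR in the Holsteins was 0.14 and CYP11A1 in the Jerseys 0.00486 per unit. With the period added, CYP11A1 for RFI by diet in the Holsteins was -0.13. Without cows 10 and 17, CYP11A1 in the Jerseys was 0.0447 by RFI and -0.0317 by period. Without 1 cow at a time, CYP11A1 ranged from -0.40 to 0.0437 by breed, from -0.11 to 0.48 for RFI by diet in the Holsteins, and in the Jerseys from -0.66 to 0.0385 by RFI, from -0.17 to 0.85 by parity and from -0.11 to 0.42 by period. FDXR ranged from -0.20 to 0.23 by RFI, from -0.0669 to 0.10 by diet and from -0.30 to 0.34 by parity in the Holsteins, and from -0.0828 to 0.12 for RFI by diet in the Jerseys. The r of both genes' diet differences lay between -0.73 and 0.43 for the Holsteins, and between -0.0287 and 0.33 for the Jerseys. The causes were not tested. The other 195 values from alternatives and 270 without 1 cow kept direction and, where an adjusted p was given, side of the threshold. DESeq2 gave no adjusted p for the period in the Jerseys. Its values there (CYP11A1 0.27, FDXR 0.18) are counted among the 195 by direction only.

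With the cow as a replicate block, FDXR by RFI in the Jerseys was -0.81 (adjusted p = 0.000631) and CYP11A1 by RFI in the Holsteins was 1.48 (adjusted p = 0.251), and the block changed no call of either gene. The number of all genes called moved by more than 1.5 times with the settings. By RFI it was 8 in the Holsteins against 0 to 61 in the alternatives, 4 in the Jerseys against 0 to 21, and 8 for RFI by breed against 0 to 42. By diet it was 94 (Holsteins) against 13 to 345 and 44 (Jerseys) against 0 to 196, by parity 46 against 1 to 199 and 27 against 0 to 269, and by breed 1172 against 409 to 1659. For RFI by diet in the Jerseys it was 0 against 0 to 2, and for the period in the Jerseys 0 against 0 to 14.

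FDXR rests on 71 to 235 read pairs per library, and the counting intervals of the libraries of a cow stayed apart in 1 of 9 Holsteins and 2 of 10 Jerseys. Overlap of 2 intervals is not a test of a difference, so the diet difference of FDXR within single cows was not tested.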
